A study of Mus musculus with 11 samples.

Results

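The copies described here are the detected genomic insertions of 5 mouse LINE1 subfamilies: L1Md_T, L1Md_Gf, L1Md_F, L1Md_F2 and L1Md_F3. A copy was taken when its row in the deposited table of transposable element (TE) copies belonged to one of these subfamilies and was above 0 TPM in at least 1 library. Of 109828 such rows, 19199 (17.5%) were detected, among 578629 detected TE copies of every kind. L1Md_F2 gave 8792 of them, L1Md_T 7808, L1Md_F3 1909, L1Md_F 422 and L1Md_Gf 268. The same subfamilies also have a row each in the gene and TE count tables. L1Md_A, a further young subfamily with 5725 detected copies, is used only as a comparator.

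Poly-A RNA of whole testes was sequenced from mice at postnatal day (P)5, when the germ cells are spermatogonia and have not entered meiosis. All mice were C57Bl6/J. Wild-type (WT) mice gave 2 libraries. Dnmt3C KO mice (Dnmt3CKO/KO), Nrf1 cKO mice (labelled Nrf1KO/KO) and double knockout mice (dKO, Dnmt3CKO/KO Nrf1KO/KO) gave 3 libraries each. The Nrf1 allele was floxed and deleted before birth by a Ddx4-Cre transgene (Nrf1 fl/KO), which is active in germ cells. Somatic cells of the same testis keep the floxed copy beside the KO allele. Whether a single animal or a pool gave each library is not stated, and p-values below measure the spread between these libraries. The comparisons ask how the copies respond to loss of DNMT3C, to loss of NRF1, and to both.

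LINE1 elements are retrotransposons that copy themselves through RNA. A full-length mouse copy starts with a promoter of repeated units called monomers, followed by ORF1, which codes for an RNA-binding protein, and ORF2, which codes for an endonuclease and reverse transcriptase. Most copies are cut short at their 5′ end and carry no promoter of their own. The subfamilies are told apart by their monomers: L1Md_T and L1Md_Gf belong to the younger lineages and, with L1Md_A, hold the elements still able to move, while F-type elements are older. In male germ cells their promoters are methylated before birth by the piRNA pathway and by DNMT3C, a rodent-specific de novo DNA methyltransferase. NRF1 is a transcription factor that binds a CpG-containing site and is blocked by methylation of that site.

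To show how alike the coding parts of these elements are, 90 bases from the third base of the ORF2 start codon are given in coding orientation for annotated ORF2 gene models (GENCODE M21, GRCm38) that lie on copies of 3 subfamilies. Capitals mark the bases that differ from the L1Md_T sequence.
L1Md_T_dup4586 (chr3:120739470-120739559, minus strand): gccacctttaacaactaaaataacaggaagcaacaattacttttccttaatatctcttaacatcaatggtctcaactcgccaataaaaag
L1Md_F2_dup46919 (chr12:14493155-14493244, minus strand): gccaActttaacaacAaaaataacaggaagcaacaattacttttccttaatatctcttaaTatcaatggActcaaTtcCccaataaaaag
L1Md_A_dup11702 (chr10:50182903-50182992, minus strand): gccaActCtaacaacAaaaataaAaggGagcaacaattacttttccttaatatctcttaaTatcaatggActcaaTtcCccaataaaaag
The L1Md_F2 window differed at 6 bases and the L1Md_A window at 9. Over 3000 bases of ORF2 the L1Md_F2 copy was 93.2% and the L1Md_A copy 96.1% identical to the L1Md_T copy, and the ORF2 of a second L1Md_T copy, L1Md_T_dup17840 on chromosome 12, was 99.7% identical to it. Both L1Md_T copies had the same 90 bases. A read from a stretch that copies share is divided among them by the counting program, so the value of a single copy is uncertain and the sum over a subfamily less so. The L1MdT promoter fragment that the study used as bait DNA was amplified with the primers L1spa FWD (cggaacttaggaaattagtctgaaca) and L1spa REV (ggacgaagaagaaggcccaa), shown because they mark the promoter on which NRF1 binding was tested. Of the RefSeq gene promoter windows on GRCm38 (250 bases before to 50 after a start), 15 lay with at least 0.5 of their bases on a member copy. The motif GCGCNNGCGC, searched on both strands, was in 0 of these 15 and in 2045 of all 32851 windows (6.23%), with a median of 3 CpG sites in the former and 7 in all. These windows are gene starts, and the monomers of member copies were not read. The 15 therefore do not show whether LINE1 promoters hold NRF1 sites. The paper reports the NRF1 motif as enriched in LINE1 targets of DNMT3C and NRF1 as bound to the unmethylated L1 bait.

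Total counts per library were between 26063590 and 39365841, of which TE subfamilies held between 1.60% and 3.07%. The libraries are labelled germ cells, but markers of somatic cells were high in each: the Sertoli cell score (mean log2 of counts per 1000000, CPM, of 10 genes) was between 7.31 and 8.54. The germ cell score, the mean over 32 genes of which none was at 0, was 4.2 and 3.87 in WT, 3.89 to 4.65 in Dnmt3C KO, 2.36 to 3.46 in Nrf1 cKO and 2.77 to 3.87 in dKO. Dnmt3c was at 3.02 to 4.94 CPM and Nrf1 at 45.0 to 60.8 CPM over the 11 libraries. The log2 fold changes were -0.25 (standard error 0.28) for Dnmt3c in Dnmt3C KO over WT and -0.06 (0.16) for Nrf1 in Nrf1 cKO over WT, with overlapping libraries, so these whole-gene counts do not check the labels. Replicates of every genotype differed by more than counting error. In whole testis, fewer germ cells and less RNA per germ cell cannot be told apart, and this holds for every level below.

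The detected copies were mostly fragments. Their median length was 996 bases, with 1696.5 for L1Md_T, 1993 for L1Md_Gf, 1716.5 for L1Md_F, 955 for L1Md_F2 and 725 for L1Md_F3. Copies of at least 5000 bases, long enough to hold both reading frames, numbered 4293: 2979 of L1Md_T, 988 of L1Md_F2, 218 of L1Md_F3, 66 of L1Md_Gf and 42 of L1Md_F. Detection rested on few reads. A single read over all 11 libraries was the evidence for 7485 copies (39.0%), 11164 copies (58.1%) were seen in 1 library only, and 434 copies were seen in all 11.

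Reads fell unevenly over these copies. The 10 leading member copies of a library held between 11.4% and 21.2% of the members' TPM and the leading 100 held between 33.8% and 46.9%. Copies lying on the sense strand of an annotated gene were 22.7% of the members and took 38.7% of their reads. Such reads can come from the gene's own transcript as well as from a LINE1 promoter. The share was 79.9% for L1Md_Gf, 43.8% for L1Md_F, 43.7% for L1Md_F2, 33.2% for L1Md_F3 and 27.0% for L1Md_T, so that L1Md_T reads came mostly from copies outside genes (62.7%). The high share of L1Md_Gf came from a group of insertions on chromosome 5 within Gm20629, an antisense RNA gene. The copy with most reads there, L1Md_Gf_dup246 (chr5:108880335-108883135, plus strand, 2801 bases), had 248 and 347 of the 513 and 652 L1Md_Gf reads in the WT libraries.

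Levels of the 5 subfamilies were first read from the count tables, as CPM after TMM scaling. L1Md_T had 163 and 200.1 CPM in WT, 154, 152 and 167 in Dnmt3C KO, with 115, 138 and 153 in Nrf1 cKO and with 195, 274 and 223 in dKO. All 3 dKO libraries stood above those of Nrf1 cKO and Dnmt3C KO, while the range of dKO overlapped that of WT. L1Md_Gf, the rarest, had 14.8 and 20.6 CPM in WT, 11.1, 8.42 and 13.03 in Dnmt3C KO, with 11.6, 12.2 and 11.7 in Nrf1 cKO and with 14.1, 16.7 and 17.0 in dKO. Both single mutants lay below WT, and dKO lay above both and overlapped WT.
L1Md_F2, the most abundant, had 348 and 395 CPM in WT, 294, 243 and 307 in Dnmt3C KO, with 231, 284 and 314 in Nrf1 cKO and with 369, 377 and 350.3 in dKO. L1Md_F3 had 68.7 and 82.5 in WT, 57.9, 47.96 and 63.0 in Dnmt3C KO, with 45.6, 54.5 and 58.7 in Nrf1 cKO and with 69.7, 67.6 and 69.6 in dKO. L1Md_F had 23.1 and 25.3 in WT, 16.9, 14.1 and 20.4 in Dnmt3C KO, with 14.3, 17.9 and 18.8 in Nrf1 cKO and with 22.6, 19.3 and 19.99 in dKO. In these 3 older subfamilies the single mutants were below WT throughout, and the dKO libraries overlapped WT for L1Md_F2 and L1Md_F3 and stayed below it for L1Md_F. By contrast, L1Md_A went from 89.6 and 123 CPM in WT to 199, 360.1 and 318 in dKO.

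**Figure D1:**
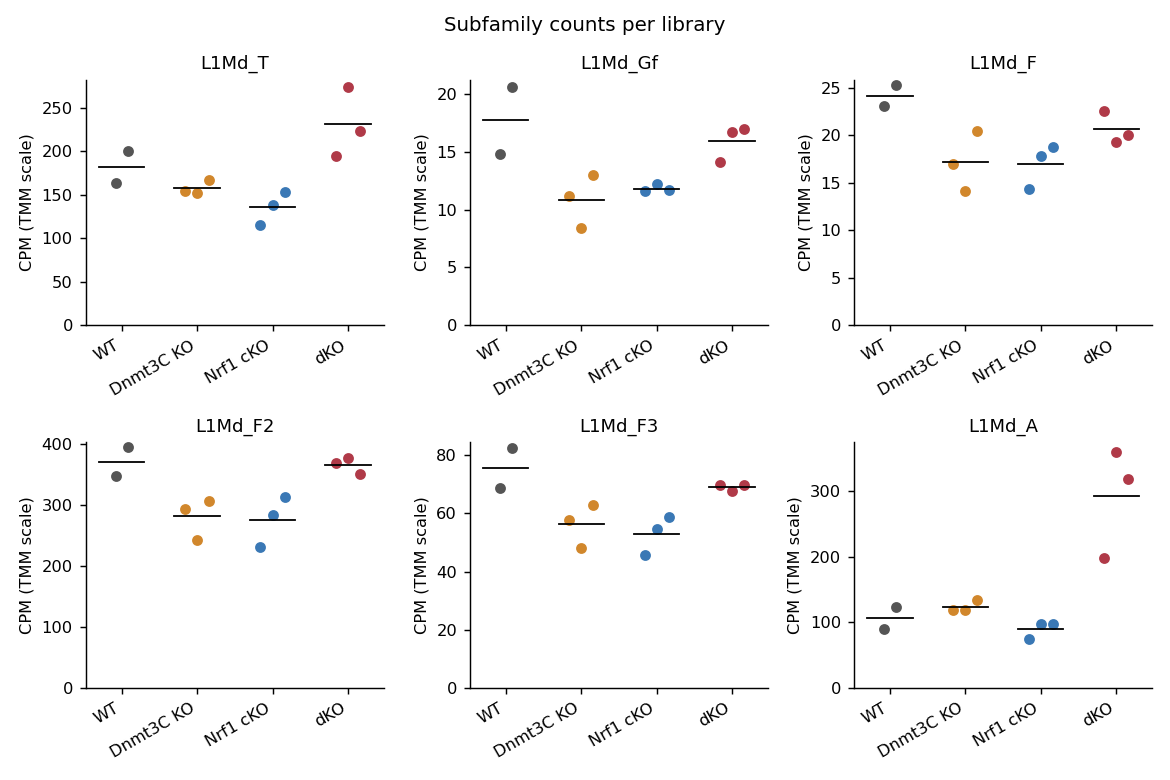
CPM on the TMM scale for the 5 member subfamilies and L1Md_A, with 1 point per library (WT n = 2, each mutant n = 3) and a line at the genotype mean. All member subfamilies have lower means in both single mutants than in WT and dKO, with L1Md_T reaching 274 CPM in a dKO library.

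Between Dnmt3C KO and WT, every Dnmt3C KO library was below both WT libraries for 4 of the 5 subfamilies, all but L1Md_T, where 39.2% of the 904 TE subfamilies showed the same separation. The log2 fold changes were -0.71 for L1Md_Gf (standard error 0.23), -0.50 for L1Md_F (0.18), -0.43 for L1Md_F3 (0.16), -0.40 for L1Md_F2 (0.17) and -0.20 for L1Md_T (0.15). Many L1Md_Gf reads lay on a single copy inside Gm20629, L1Md_Gf_dup246. In WT it held 248 and 347 of the 513 and 652 L1Md_Gf reads. In Dnmt3C KO it held 129, 122 and 168 of 348, 303 and 380. The L1Md_Gf fold change without this copy was not tested, here or in the comparisons below. edgeR's quasi-likelihood test called 0 members at an adjusted p under 0.01, along with 0% of all genes and TE subfamilies. At an unadjusted p under 0.05 it had 4 members lower, against 14.3% of TE subfamilies, whose median was -0.34. The smallest adjusted p of a member was 0.851 (edgeR), for L1Md_Gf.

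Between Nrf1 cKO and WT, all 5 subfamilies had every Nrf1 cKO library below both WT libraries, as had 57.2% of TE subfamilies. Log2 fold changes were between -0.59 for L1Md_Gf and -0.43 for L1Md_T, beside a TE median of -0.56. The test called 0 members and 0% of features at an adjusted p under 0.01. The paper, with its own test, reports genes that differed between these genotypes, more of them lower than higher. A result of 0 calls here therefore does not show that no gene changed. Without adjustment 4 members passed 0.05, all lower, where 28.4% of TE subfamilies did. The germ cell score was lower in these libraries too, and its part in these values was not tested. When libraries were scaled to an equal germ cell score, the median of all features moved to 1.26 and the members to between 0.66 and 0.86, which turned their sign but left them 0.40 to 0.60 under that median.

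Between dKO and Nrf1 cKO, all 5 subfamilies had every dKO library above every Nrf1 cKO library, against 16.5% of TE subfamilies. L1Md_T had the widest difference, a log2 fold change of 0.77 (standard error 0.17), followed by L1Md_Gf at 0.43 (0.16), L1Md_F2 at 0.41 (0.15), L1Md_F3 at 0.38 (0.13) and L1Md_F at 0.28 (0.16). L1Md_A was at 1.70 (0.22). The test again called 0 members and 0% of features, with an adjusted p of 1.0 for each member (edgeR), while 4 members and 9.67% of TE subfamilies were higher at an unadjusted p under 0.05. Scaled to equal germ cell scores, which moved the median of all features to -0.61, L1Md_T was at 0.13 and the other members lay between -0.37 and -0.15, all above that median.

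Between dKO and Dnmt3C KO, every dKO library was above every Dnmt3C KO library for L1Md_T, L1Md_Gf, L1Md_F2 and L1Md_F3 but not for L1Md_F, a separation that 7.74% of TE subfamilies showed. L1Md_Gf and L1Md_T were at 0.55 (standard error 0.18) and 0.54 (0.14), L1Md_F2, L1Md_F3 and L1Md_F at 0.37, 0.29 and 0.27. With equal germ cell scores the members were at 1.07 to 1.40, and the median of all features was 0.83. Adjusted p-values were 0.675 to 0.691 (edgeR), with 0 members and 0% of features called, and 4 members against 3.17% of TE subfamilies were higher at an unadjusted p under 0.05. Between dKO and WT, 0 of the 5 subfamilies had all dKO libraries above WT, against 2.88% of TE subfamilies. L1Md_T was at 0.34 (standard error 0.20) and the others were between -0.23 and -0.03, with 0 members and 0% of features called and 0 members at an unadjusted p under 0.05. With equal germ cell scores, where the median of all features was 0.67, the other 4 turned to between 0.41 and 0.62. DESeq2's Wald test, the study's tool, also called 0 members in each comparison. It called 0.1% of features for Dnmt3C KO over WT, 0.108% for Nrf1 cKO over WT, 0.0241% for dKO over Nrf1 cKO, 0.0704% for dKO over Dnmt3C KO and 0.012% for dKO over WT. Over all libraries it called 0.106% for Dnmt3C loss, 0.239% for Nrf1 deletion and 0% for the interaction.

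Each factor was also tested over all 11 libraries. Loss of Dnmt3C, averaged over the Nrf1 states, gave 0.28 for L1Md_T (standard error 0.12, adjusted p = 1.0, edgeR), the 1 member under an unadjusted 0.05 where 3.43% of TE subfamilies were higher. The other members lay between -0.14 and 0.00, and L1Md_A at 0.96 (0.16, adjusted p = 0.0872, edgeR). Deletion of Nrf1, averaged over the Dnmt3C states, gave -0.12 to 0.06 for the members and 0.50 (0.15) for L1Md_A. Both factors had 0 members called, with 0% of features called for Dnmt3C loss and 0.00443% for Nrf1 deletion, and no member passed an unadjusted 0.05 for Nrf1 deletion. Scaling to equal germ cell scores moved the medians of all features to -0.38 and 1.04, which put L1Md_T at -0.11 for Dnmt3C loss and all 5 members at 0.93 to 1.11 for Nrf1 deletion, close to that median, with L1Md_T called among 38% of all features.

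The effect of losing Dnmt3C differed between the Nrf1 states by 0.78 to 1.14 on the log2 scale. This interaction, dKO over Nrf1 cKO minus Dnmt3C KO over WT, was 1.14 for L1Md_Gf (standard error 0.28), 0.97 for L1Md_T (0.23), 0.81 for L1Md_F3 (0.20), 0.80 for L1Md_F2 (0.22) and 0.78 for L1Md_F (0.24). All 5 had an unadjusted p between 0.000966 and 0.00654, and an adjusted p of 0.895 (edgeR), with 0 members and 0% of features called. The TE background was also above 0: 28.5% of TE subfamilies had a higher interaction at an unadjusted p under 0.05, and their median was 0.68. Libraries of Dnmt3C KO below WT together with libraries of dKO above Nrf1 cKO, the pattern of 4 members (all but L1Md_T), were found in 7.52% of TE subfamilies. With equal germ cell scores the 5 values were between 0.28 and 0.74, with the median of all features at -0.47.

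**Figure D2:**
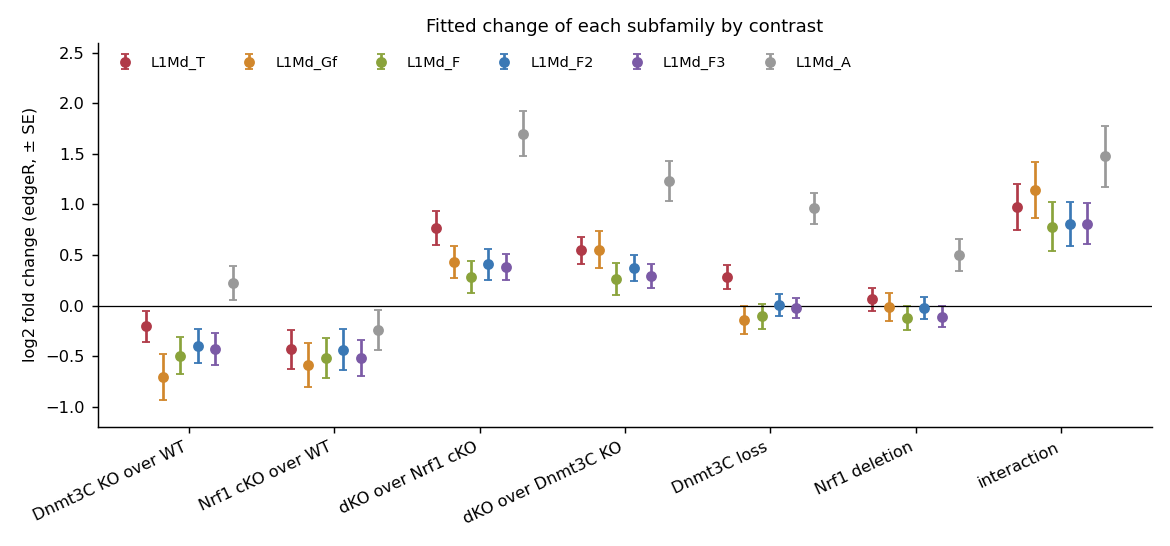
Log2 fold changes of the 5 member subfamilies and L1Md_A in each comparison, as points with bars of 1 standard error (edgeR, WT n = 2, each mutant n = 3). Members lie below 0 in both single mutants against WT and above 0 in dKO against each single mutant, and in dKO against Nrf1 cKO L1Md_T reached 0.77 while L1Md_A reached 1.70.

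TPM in the copy table give a copy's part of all TE reads, and on this scale the genotypes overlapped. Summed over all member copies, TPM were 4112 and 4746 in WT, 4242, 4321 and 4585 in Dnmt3C KO, with 5661, 4395 and 4743 in Nrf1 cKO and with 4426, 5166 and 4916 in dKO. Nrf1 cKO replicate 1 had the highest sum and also the lowest TE share (1.60%), whose part in it was not tested. Loss of Dnmt3C changed the log2 sum by -0.02 (exact permutation test within the Nrf1 states, 200 arrangements, two-sided p = 0.805, adjusted over 12 tests 0.878) and deletion of Nrf1 by 0.15 (exact permutation p = 0.105, adjusted 0.48). L1Md_T summed to 772 and 894 TPM in WT, 788, 882 and 983 in Dnmt3C KO, with 1055, 863 and 845 in Nrf1 cKO and with 825, 1237 and 1061 in dKO. TPM are divided by the TE total of a library and CPM by its scaled total of all counts, so a library low in all TEs is low only in CPM. No summed TPM of a subfamily passed an adjusted 0.05.

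A ratio within a library does not depend on how libraries are scaled. Reads on member copies outnumbered those on L1Md_A copies 7.28-fold and 6.13-fold in WT, 4.79-, 4.05- and 4.45-fold in Dnmt3C KO, with 5.86-, 5.39- and 6.08-fold in Nrf1 cKO and with 3.51-, 2.13- and 2.17-fold in dKO. The WT and Nrf1 cKO libraries lay above all Dnmt3C KO libraries, and the dKO libraries lay below every other. Loss of Dnmt3C changed the log2 ratio by -0.89, with -0.60 where Nrf1 was intact and -1.19 where it was deleted (exact permutation test, two-sided p = 0.005, the smallest it can give, adjusted over 12 tests 0.006). Deletion of Nrf1 changed it by -0.51 (exact permutation p = 0.005, adjusted 0.006), with -0.21 where Dnmt3C was intact and -0.80 where it was lost. Leaving out each library in turn gave -1.01 to -0.83 and -0.63 to -0.45. Each of the 5 subfamilies passed as well. Of the 905 TE subfamilies with reads in each library, 69.9% were lower relative to L1Md_A at an unadjusted p under 0.05 for Dnmt3C loss (median -0.98) and 39.1% for Nrf1 deletion (median -0.72). The reads of L1Md_A itself differed by 0.97 for Dnmt3C loss (exact permutation p = 0.02) and those of the members together by 0.08 (exact permutation p = 0.655). The latter averages -0.37 with Nrf1 intact and 0.53 with it deleted, where L1Md_A was at 0.22 and 1.72. Both parts of the ratio therefore moved. For Nrf1 deletion the members were at -0.50 with Dnmt3C intact and 0.40 without it, and L1Md_A at -0.29 and 1.21. The ratio changed by -1.15 for L1Md_Gf, -1.08 for L1Md_F, -0.99 for L1Md_F3, -0.96 for L1Md_F2 and -0.68 for L1Md_T after loss of Dnmt3C.
The same ratio of summed TPM, which weights short copies more, had smaller differences of -0.46 (exact permutation p = 0.035, adjusted 0.14) and -0.24 (exact permutation p = 0.27, adjusted 0.336), so the call held for reads and not for TPM. The reads scale was added after the TPM values had been seen. On the reads scale L1Md_A itself was at 81.8 and 110.0 reads per 1000000 counts (RPM) in WT and 181, 326 and 282 in dKO.

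L1Md_T was also set against the other members. This ratio was chosen because L1Md_T stood out in these data, so its values are a description with no test. L1Md_T reads were 0.336 and 0.357 of those on the other 4 subfamilies in WT, 0.373, 0.463 and 0.388 in Dnmt3C KO, with 0.351, 0.349 and 0.351 in Nrf1 cKO and with 0.378, 0.538 and 0.454 in dKO. All 6 libraries without Dnmt3C lay above the 5 libraries with it. The log2 difference for loss of Dnmt3C was 0.30, with 0.23 and 0.37 in the 2 Nrf1 states. With summed TPM it was 0.18, with overlapping libraries. Deletion of Nrf1 gave 0.09 on reads.

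**Figure D3:**
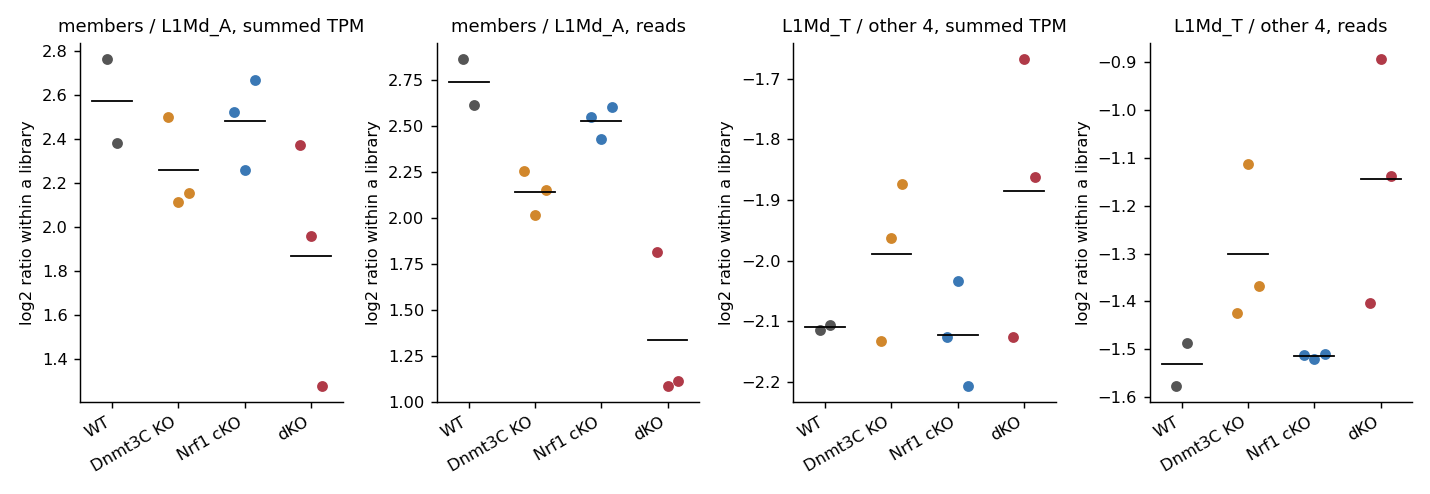
Ratios within each library on a log2 axis, from reads and from summed TPM, with 1 point per library and a line at the genotype mean (WT n = 2, each mutant n = 3). From reads, the ratio of members to L1Md_A is lowest in the 3 dKO libraries (2.13 to 3.51) and highest in WT, and L1Md_T over the other members is higher in every library without Dnmt3C.

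More L1Md_T copies were detected in dKO than elsewhere. A library of WT had 1457 or 1512 L1Md_T copies above 0, of Dnmt3C KO 1423, 1242 or 1361, of Nrf1 cKO 860, 1136 or 982, and of dKO 1805, 2204 or 1890. The dKO libraries were above all 8 others, which 0.552% of TE subfamilies with a detected copy in each library showed, L1Md_A among them. Copies detected over all TEs numbered 205336, 147012 and 160095 in dKO and overlapped the 206978 and 163810 of WT. The total counts of the dKO libraries were between 32567454 and 34643628, and the part of depth or of the TE share in these numbers was not tested. L1Md_Gf showed the same order with 65, 103 and 76 copies in dKO against 35 to 54 in the other genotypes. For L1Md_F2 the dKO range of 1942 to 2374 overlapped the WT values of 2214 and 2024. Over both factors none of these counts passed the exact permutation test: loss of Dnmt3C gave a log2 difference of 0.42 for L1Md_T (p = 0.095 by exact permutation), -0.15 with Nrf1 intact and 0.99 without it. At a limit of 1 TPM the order was not kept, with 148 and 187 L1Md_T copies in WT and no more than 242 in any library.

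Long copies, those that can hold a promoter, were followed by their RPM. L1Md_T copies of at least 5000 bases had 66.8 and 84.0 in WT, 70.8, 75.9 and 63.6 in Dnmt3C KO, with 46.2, 57.7 and 59.2 in Nrf1 cKO and with 85.5, 129.8 and 99.99 in dKO. The dKO libraries were the highest, though the lowest of them barely exceeded the higher WT library, and the Nrf1 cKO libraries were the lowest. The 66 long L1Md_Gf copies had 0.81 in both WT libraries, 0.53 to 0.58 in Dnmt3C KO, with 0.30 to 0.48 in Nrf1 cKO and with 1.24, 2.30 and 1.39 in dKO. They held between 9.07% and 15.4% of L1Md_Gf reads in dKO and between 2.75% and 7.26% in the other libraries. Of the 40 TE subfamilies with reads on such long copies in each library, 7.5% had a higher share in every dKO library than in all others, L1Md_A among them and L1Md_T not.
The 988 long L1Md_F2 copies had 66.4 and 77.3 in WT, 42.6 to 56.4 in Dnmt3C KO, 37.2 to 57.2 in Nrf1 cKO and 70.2 to 74.3 in dKO. Long L1Md_F3 copies had 20.1 and 28.1 in WT against 18.0 to 22.9 in dKO. Long L1Md_A copies went from 31.7 and 42.8 in WT to 99.5, 204 and 152 in dKO. Of 100 tests of length and gene classes of the members on each scale, 0 passed an adjusted 0.05 by the exact permutation test, and 6 (TPM) and 2 (reads) had an unadjusted p under 0.05.

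**Figure D4:**
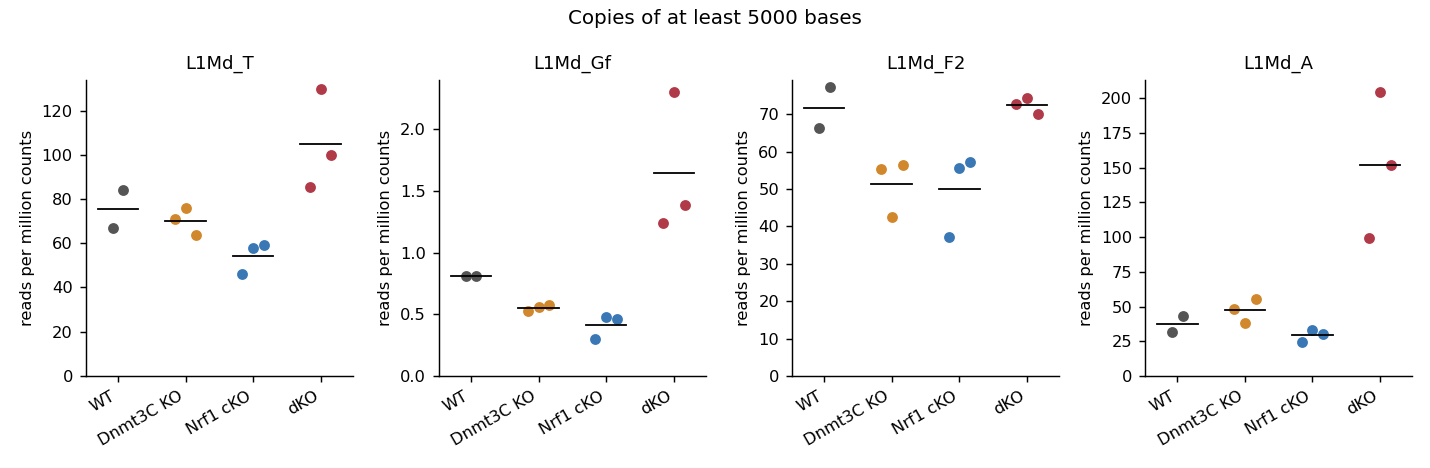
RPM (reads per 1000000 counts) on copies of at least 5000 bases of L1Md_T, L1Md_Gf, L1Md_F2 and L1Md_A, with 1 point per library and a line at the genotype mean (WT n = 2, each mutant n = 3). Long L1Md_T and L1Md_Gf copies are highest in the 3 dKO libraries, while long L1Md_F2 copies in dKO (70.2 to 74.3) stay within the WT range.

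Single copies were tested with limma on log2(TPM + 1), for copies with a mean of at least 1 TPM. Of the members, 698 of 19199 passed that filter (438 of L1Md_F2, 131 of L1Md_T, 100 of L1Md_F3, 20 of L1Md_F, 9 of L1Md_Gf), among 149385 TE copies. At an adjusted p under 0.01 limma called 0 member copies in all 8 contrasts, and 0% of copies, or 0.00134% for Dnmt3C loss. Between 7 and 14 of the 698 had an unadjusted p under 0.05 in a contrast. The share among all copies was 4.4% for Dnmt3C KO over WT, 5.62% for Nrf1 cKO over WT, 5.4% for dKO over Nrf1 cKO, 4.01% for dKO over Dnmt3C KO and 4.03% for dKO over WT, and 4.76%, 4.88% and 4.68% for Dnmt3C loss, Nrf1 deletion and the interaction. Of the members, the smallest adjusted p was 0.746 (limma). In a fit without WT replicate 1 or without WT replicate 2, where the lone WT library is assumed to vary like the rest, 2 member copies were called in the contrasts that use WT, beside 0.939% to 0.955% of all copies without replicate 1 and 0.766% to 0.774% without replicate 2. The copies of smallest p included fragments with few reads. L1Md_F2_dup30109 (chr8:110990761-110990854, minus strand, 94 bases), in an intron of Ddx19a, an RNA helicase gene, had 2 and 6 reads in WT and 0 in every other library. L1Md_F2_dup5777 (chr2:42736931-42737687, minus strand, 757 bases, outside genes) had 0 reads in WT and Nrf1 cKO, 12, 9 and 12 in Dnmt3C KO, and 10, 3 and 0 in dKO. Both copies passed the filter on mean TPM only through the libraries in which they are high, so these values are a description and support no change.

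The members of highest TPM were mostly short copies. L1Md_F2_dup26251 (chr7:75773041-75773431, minus strand, 391 bases), inside the lincRNA gene AU020206, led with 174 and 176 TPM in WT, 146, 190.4 and 172 in Dnmt3C KO, with 406, 236 and 214 in Nrf1 cKO and with 175, 263 and 246 in dKO. It had 405 and 345 reads in WT, 272, 312 and 269 in Dnmt3C KO, with 400, 379 and 260 in Nrf1 cKO and with 374, 434 and 390 in dKO. In RPM the Dnmt3C KO libraries, at 7.93 to 8.60, were below all others, at 9.98 to 13.3, which was not so in TPM. Its log2 difference of 0.53 for Nrf1 deletion had an adjusted p of 0.923 (limma). L1Md_F2_dup16768 (chr4:122860392-122861174, plus strand), antisense to Cap1, an actin regulator gene, had 318 and 66 reads in WT, 352, 117 and 405 in Dnmt3C KO, with 239, 440 and 81 in Nrf1 cKO and with 444, 394 and 425 in dKO. It varied within WT, Dnmt3C KO and Nrf1 cKO, while the dKO libraries were close together. L1Md_T_dup21869 (chr16:84719093-84719754, minus strand, 662 bases), in an intron of Mrpl39, a mitochondrial ribosomal protein gene, was the leading L1Md_T copy, with 100 and 114 reads in WT, 107, 117 and 91 in Dnmt3C KO, with 133, 119 and 62 in Nrf1 cKO and with 101, 124 and 110 in dKO. L1Md_F_dup1058 (chr5:108878607-108880326, plus strand), the leading L1Md_F copy, lies in Gm20629 next to L1Md_Gf_dup246, and both had their most reads in WT, 135 and 136 for the former. In TPM this order did not hold, with L1Md_F_dup1058 at 13.2 and 15.8 in WT and at 22.4 in Nrf1 cKO replicate 1.

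Reads per copy could be recovered from the TPM values as whole numbers, and edgeR's quasi-likelihood test was run on them as an addition. The filter on low counts kept 23341 copies and 444 members, 110 of them of at least 5000 bases. Members that passed through the genotype in which they are high had to differ, so the counts that follow describe these 444 and are no support. At an unadjusted p under 0.05, the Dnmt3C KO over WT contrast had 32 members lower and 11 higher (2.96% of all copies lower), and dKO over Nrf1 cKO had 36 higher and 2 lower (7.75% higher). The dKO over Dnmt3C KO contrast had 30 higher and 1 lower (2.22% higher), and the interaction 50 higher and 0 lower (6.55% higher). For loss of Dnmt3C 19 were higher and 10 lower (5.03% higher), and the long copies among them were split 10 to 1, the shorter 9 to 9. For loss of Dnmt3C 1 member was called at an adjusted p under 0.01, where 0.347% of copies were called, and 0 in the other contrasts, where 0.0171% of copies (dKO over Nrf1 cKO) or 0% were called.

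That member was L1Md_F2_dup17446, a copy of 5969 bases outside annotated genes (chr5:18169148-18175116, minus strand). It had 2 and 0 reads in WT, 38, 14 and 26 in Dnmt3C KO, with 2, 0 and 0 in Nrf1 cKO and with 59, 31 and 26 in dKO. All 6 libraries without Dnmt3C were above all 5 with it, in both Nrf1 states, with 194 reads against 4 and a 39.3-fold higher level in RPM. Since it passed the filter on low counts through the libraries without Dnmt3C, it had to differ, and these values describe it without supporting a change. The call was also lost in 7 of 11 fits that left out a library: those without WT replicate 1 or 2, Dnmt3C KO replicate 1 or 3, Nrf1 cKO replicate 2 or 3, or dKO replicate 1.

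The 4 copies next in order, named after their values were seen, were not called, were long as well and lay outside genes. They too passed the filter through the libraries without Dnmt3C and are given as a description. L1Md_F2_dup31869 (chr9:87827259-87832716, minus strand, 5458 bases) had 0 reads in the 5 libraries with Dnmt3C, 7, 3 and 4 in Dnmt3C KO, and 11, 23 and 20 in dKO. Against a floor of 3 counts over the group it was at least 18.3-fold higher without Dnmt3C. L1Md_F2_dup18097 (chr5:47843554-47848889, plus strand, 5336 bases) had 3 reads with Dnmt3C, 9, 3 and 9 in Dnmt3C KO, and 15, 23 and 30 in dKO.
L1Md_T_dup3326 (chr3:6299059-6312550, plus strand, 13492 bases, the longest member) had 0 reads with Dnmt3C, 9, 2 and 1 in Dnmt3C KO, and 15, 52 and 28 in dKO, at least 28.9-fold higher over the same floor. Of its 107 reads 52 were in dKO replicate 2, and without that library the bound was 17.6-fold. L1Md_T_dup17330 (chr12:19626887-19632719, plus strand, 5833 bases) had 2 and 12 reads in WT, 8, 4 and 5 in Nrf1 cKO, 61, 32 and 51 in Dnmt3C KO, and 28, 39 and 25 in dKO, a 6.16-fold higher level. It was the 1 of the 5 with a higher mean in Dnmt3C KO than in dKO. In L1Md_F2_dup31869, L1Md_F2_dup18097 and L1Md_T_dup3326 each dKO library was above each Dnmt3C KO library.

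**Figure D5:**
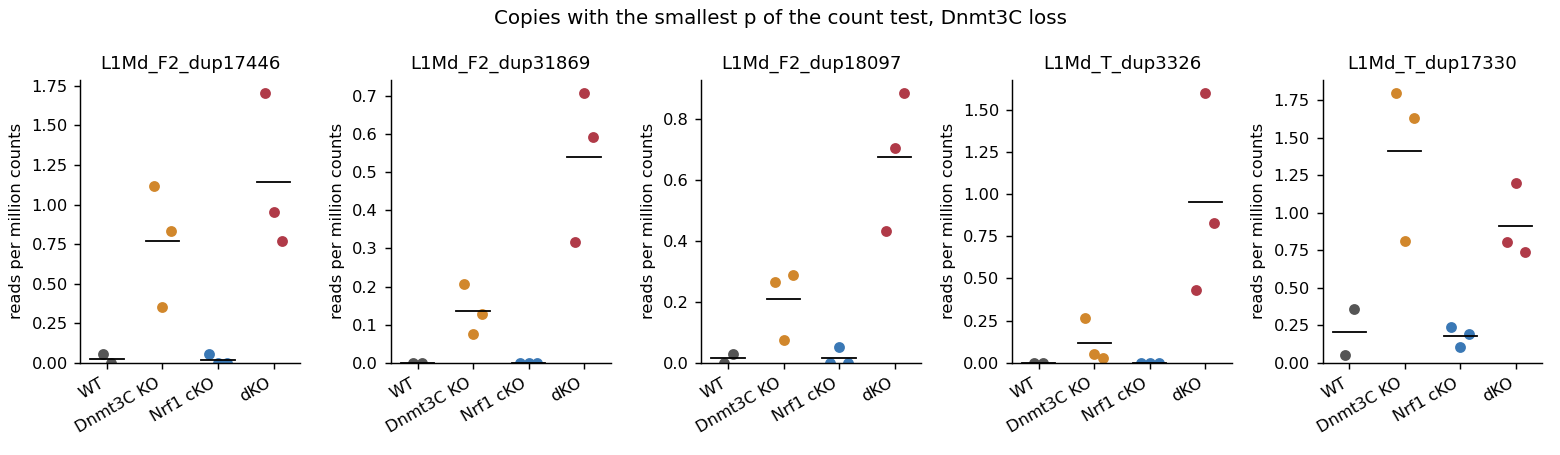
RPM (reads per 1000000 counts) of the 5 member copies first in order in the count test for loss of Dnmt3C, with 1 point per library and a line at the genotype mean (WT n = 2, each mutant n = 3). The 6 libraries without Dnmt3C lie above the 5 with it for each copy, with 4 reads against 194 for L1Md_F2_dup17446. The copies were chosen for this difference.

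The smallest p of a member for the interaction belonged to copies that were low in both single mutants. L1Md_F2_dup45544 (chr11:31535201-31539301, 4101 bases, outside genes) had 32 and 33 reads in WT, 11, 10 and 10 in Dnmt3C KO, with 21, 23 and 13 in Nrf1 cKO and with 27, 39 and 31 in dKO. L1Md_T_dup8917 (chr7:7216427-7222868, 6442 bases), on the sense strand of Gm45844, had 53 and 35 reads in WT, 15, 22 and 19 in Dnmt3C KO, with 19, 12 and 7 in Nrf1 cKO and with 35, 21 and 48 in dKO. Their interactions of 2.35 (standard error 0.63) and 2.61 (0.71) had an adjusted p of 0.701 (edgeR), and 0% of copies were called. For Nrf1 deletion no member was under an adjusted p of 1.0 (edgeR). L1Md_T_dup18642 (chr13:67019743-67020737, 995 bases), antisense to 4933433G19Rik, had the largest rise in fitted value among the 5 of smallest p, with 0 and 1 reads in WT, 3, 0 and 2 in Dnmt3C KO, with 5, 13 and 9 in Nrf1 cKO and with 4, 5 and 12 in dKO.

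The genes that act on LINE1 were read from the same counts, in 4 lists. The de novo methylation and piRNA list, whose products direct methylation to young TEs, had 0 of 22 genes called in any contrast. For Nrf1 deletion 11 of 22 were lower at an unadjusted p under 0.05, where 4.61% of all genes were, and the median was -0.86 against 0.01 over all genes. Mael, a piRNA pathway factor, was at -1.13 (standard error 0.24, adjusted p = 0.228, edgeR), Ddx4, a germ cell RNA helicase, at -0.98 (0.23, adjusted p = 0.270, edgeR) and Tdrd12, which is needed for secondary piRNAs, at -1.69 (0.48, adjusted p = 0.390, edgeR). These genes are expressed in germ cells, and the germ cell score of the same libraries was lower as given above. Several genes of the list, Mael and Ddx4 included, are also genes of that score. The list and the score are therefore not separate measurements, and their part in each other was not tested. For loss of Dnmt3C 0 of the 22 passed an unadjusted 0.05, with a median of 0.19.
Of the 17 measured chromatin repressors (of 18 listed), which include Trim28, Setdb1 and the HUSH complex, 4 were lower for Nrf1 deletion at an unadjusted p under 0.05 and the median was 0.02. In dKO over Dnmt3C KO 3 of the 17, Ezh2, Atf7ip and Tasor, were higher on the same criterion and 0 lower, with a median of 0.11 against 0.01 over all genes. The share of all genes higher in that comparison was not counted, so 3 of 17 cannot be set against it. Among those lower for Nrf1 deletion were Mphosph8, a HUSH subunit, at -0.28 (0.11), and Morc3 at -0.19 (0.09). Of 11 genes that act on LINE1 RNA or its copying, 1 was lower, Tex19.1, a germ cell gene that is also in the germ cell score, at -0.87 (0.23). Of 6 transcriptional activators, Nrf1 among them at 0.09 (0.08), 0 passed. None of the 4 lists had a gene called in any contrast.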

How the data were processed

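The authors left out 1 replicate per genotype for low RNA integrity. Reads of 11 poly-A RNA libraries from whole testes were aligned by the authors with STAR 2.7.3a to GRCm38 (GENCODE M25), allowing up to 100 multiple hits. The deposited counts of genes and TE subfamilies were made with TEtranscripts 2.2.3 in its stranded mode for multiple mappers and are unnormalized. The deposited TPM of TE copies were made by the authors with TElocal 1.1.1 and sum to 1000000 per library over TE copies alone, so they are relative to the TE total. Both programs divide reads with many hits among near-identical copies. The authors' own comparisons (DESeq2 1.44.0: mean normalized counts as a score, log2 fold change, test statistic, p-value and adjusted p-value) stand in the same deposited tables and were not used.

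A library's counts were identical between tables, and 33188 genes and 1088 TE subfamilies were joined. They were tested with edgeR 4.0.16 in R 4.3.3 (filterByExpr, TMM, quasi-likelihood fit, Benjamini-Hochberg adjustment over genes and subfamilies, threshold 0.01, as in the study). Pairs used the libraries of their 2 genotypes, and the factors and the interaction used all 11. Copies were tested with limma 3.58.1 on log2(TPM + 1) at a mean of at least 1 TPM. Fold changes on that scale understate low copies. Sums were compared by exact permutation within strata in Python 3.11.15 with scipy 1.17.1, with a smallest p of 0.005. Genotypes compared pairwise in this way cannot go below 0.1. Each TPM value gave a whole number of reads (100% within 0.001), so reads per copy were recovered and tested with edgeR as an alternative chosen after seeing the data. Gene overlap (at least 0.5 of a copy, bedtools 2.31.1) used GENCODE M21 on GRCm38. Counting was stranded, so a copy counts reads of its own strand. Counts are of reads, not of molecules, so floors of 3 counts cover counting error only. Adjacent fragments of 1 insertion have rows of their own: 1906 member rows lay within 100 bases of the row before.

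Checked on simulated counts in which 200 features had a log2 change of 2, edgeR recovered 95.5% in dKO over Nrf1 cKO (20409 features), 94.5% in Dnmt3C KO over WT (21633) and 99% for Dnmt3C loss (22632). In this check the spread followed a trend over expression, without each feature's own spread, and features of low count were not changed. Every subfamily log2 fold change given above was smaller than 2, so these shares do not measure sensitivity to the members' differences. For Dnmt3C loss over copies, limma recovered 0% at a log2 change of 2, 53% at 4 and 86.5% at 6 (149385 copies), and edgeR on reads 35% at 2 (23341 copies).

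The members and gene lists were chosen with earlier results of these data known. Named were every member subfamily and L1Md_A, the 3 copies of highest mean in each subfamily, the 5 of smallest p in each contrast, and the 5 largest rises and falls at an unadjusted p under 0.05 for each factor. Which of these are given singly was chosen after their values were seen. Of copy sequence, the annotated ORF2 models and the RefSeq promoter windows on member copies were used.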

Additional observations from a re-analysis of the deposited data

Results flagged for a closer look

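In 4 subfamilies the libraries moved, on the TMM CPM scale, in opposite directions after loss of Dnmt3C in the 2 Nrf1 states: each Dnmt3C KO library was below both WT libraries, and each dKO library was above each Nrf1 cKO library. The difference between the 2 effects, tested as an interaction with edgeR's quasi-likelihood test, was 1.14 on the log2 scale for L1Md_Gf, 0.78 for L1Md_F, 0.80 for L1Md_F2 and 0.81 for L1Md_F3. None passed the threshold, with an adjusted p of 0.895 each (edgeR), and the median over all TE subfamilies was 0.68. The L1Md_Gf interaction was not tested without L1Md_Gf_dup246, the copy with most L1Md_Gf reads. The signs of the 2 effects depended on the scale. With equal germ cell scores dKO over Nrf1 cKO was at -0.15, -0.37, -0.25 and -0.25 for L1Md_Gf, L1Md_F, L1Md_F2 and L1Md_F3, the same sign as Dnmt3C KO over WT. That scaling shifts all features, with medians of -0.61 and -0.13 in these comparisons. Relative to the medians the directions stayed opposite, at 0.47, 0.24, 0.37 and 0.36 against -0.76, -0.52, -0.43 and -0.46. In summed TPM both differences were negative for L1Md_Gf (-0.34 with Nrf1 intact and -0.091 without it) and for L1Md_F2 (-0.044 and -0.087).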

How the results depend on the processing

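Under DESeq2's test or size factors, no filter, gene-only library sizes, a threshold of 0.05, 1 fit of all genotypes, the block and each left-out library, the count of member subfamilies called stayed at 0 in all 8 contrasts. Scaled to equal germ cell scores, 1 was called for Nrf1 deletion, L1Md_T, with 38% of all features, and it lay 0.07 above their median. That scaling, which also moved the median of all features, turned the sign of these log2 fold changes: Nrf1 cKO over WT (L1Md_T 0.86, L1Md_Gf 0.66, L1Md_F 0.78, L1Md_F2 0.86, L1Md_F3 0.77), dKO over WT (L1Md_Gf 0.51, L1Md_F 0.41, L1Md_F2 0.62, L1Md_F3 0.52), dKO over Nrf1 cKO (L1Md_Gf -0.15, L1Md_F -0.37, L1Md_F2 -0.25, L1Md_F3 -0.25), Dnmt3C loss (L1Md_T -0.11, L1Md_F2 -0.41) and Nrf1 deletion (L1Md_Gf 1.04, L1Md_F 0.93, L1Md_F2 1.03, L1Md_F3 0.95). Relative to the median of all features in each scaled fit, these values kept the sign of the main fit. The exception was L1Md_F2 for Dnmt3C loss, at -0.03.

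Replicate numbers did not pair the libraries: of 15 same-numbered pairs 3 had a correlation over 0.1 (-0.23 to 0.22), and 2 of 11 libraries correlated best with their own number. The numbers are those of the sample titles. Replicate 3 of Dnmt3C KO and of dKO carries another number in its library description. With the replicate block, L1Md_F2 was at -0.014 for Dnmt3C loss, the log2 fold change of L1Md_F2, dKO over WT, was 0.0086, the calls of 0 subfamilies and 0 member copies by limma stayed, and the count test on reads called 108 copies instead of 81, still with 1 member.

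These summed TPM differences changed sign without passing a test. Scaled by TE share, L1Md_T, L1Md_F, L1Md_F2, L1Md_F3 and the members together were at -0.032, -0.15, -0.061, -0.18 and -0.068 for Nrf1 deletion, and L1Md_F2, L1Md_F3 and the members at 0.013, 0.073 and 0.061 for Dnmt3C loss. As RPM, L1Md_Gf, L1Md_F, L1Md_F2, L1Md_F3 and the members were at -0.034, -0.16, -0.060, -0.15 and -0.051 for Nrf1 deletion, and L1Md_F, L1Md_F2 and the members at -0.11, 0.0071 and 0.079 for Dnmt3C loss. With copies of at least 1 TPM, L1Md_T and L1Md_F were at -0.068 and -0.021 for Dnmt3C loss. Without the 10 leading copies, L1Md_Gf and L1Md_F3 were at 0.35 and 0.055 for Dnmt3C loss, and L1Md_F and L1Md_F3 at -0.013 and -0.021 for Nrf1 deletion.

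The log2 ratio to L1Md_A passed with reads and not with TPM. On reads it was, for Dnmt3C loss and Nrf1 deletion, -0.89 and -0.51 for the members, -0.68 and -0.45 for L1Md_T, -1.15 and -0.49 for L1Md_Gf, -1.08 and -0.62 for L1Md_F, -0.96 and -0.52 for L1Md_F2, and -0.99 and -0.61 for L1Md_F3. The cause was not tested. Detected copies at 1 TPM reversed for Nrf1 deletion (L1Md_T 0.13, L1Md_F 0.042, members 0.015) and Dnmt3C loss (L1Md_Gf -0.061, L1Md_F2 -0.011). edgeR on recovered reads called 1 member for Dnmt3C loss where limma called 0.

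With each library left out, log2 fold changes ran for dKO over WT from -0.38 to 0.10 (L1Md_Gf), -0.12 to 0.072 (L1Md_F2) and -0.27 to 0.0061 (L1Md_F3), highest without WT replicate 2, for Dnmt3C loss from -0.054 to 0.055 (L1Md_F2) and -0.084 to 0.049 (L1Md_F3), and for Nrf1 deletion from -0.015 to 0.14 (L1Md_T), -0.12 to 0.11 (L1Md_Gf) and -0.078 to 0.031 (L1Md_F2). Summed TPM ran for Dnmt3C loss from -0.070 to 0.034 (members), -0.0038 to 0.20 (L1Md_F) and -0.055 to 0.046 (L1Md_F3), and for Nrf1 deletion from -0.051 to 0.15 (L1Md_F) and -0.018 to 0.083 (L1Md_F3). Member copies called by limma ran from 0 to 2 in the 6 contrasts that use WT, with 2 without either WT library, and by the count test from 0 to 1.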

Other observations

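Among copies on the other strand of an annotated gene, 2 classes had a positive log2 difference for loss of Dnmt3C. In RPM the first did not overlap between Dnmt3C KO and WT or between dKO and Nrf1 cKO, but dKO overlapped WT. The second overlapped between Dnmt3C KO and WT. Both classes were chosen after their values were seen, the first from 100 tests per scale and the second from further length classes whose p-values were not adjusted. The 52 L1Md_F copies of this kind had 0.61 and 0.63 RPM in WT, 1.03, 0.66 and 0.96 in Dnmt3C KO, with 0.30, 0.51 and 0.42 in Nrf1 cKO and with 0.69, 0.74 and 0.62 in dKO. Their log2 difference for loss of Dnmt3C was 0.63 on reads (exact permutation p = 0.01, adjusted 1.0) and 1.23 on summed TPM (exact permutation p = 0.005, adjusted 0.375). The 66 L1Md_F2 copies of at least 6000 bases had 2.15 and 3.54 in WT, 4.07, 5.74 and 3.16 in Dnmt3C KO, with 1.66, 5.07 and 2.92 in Nrf1 cKO and with 5.25, 12.6 and 10.1 in dKO, a log2 difference of 1.1 (exact permutation p = 0.025, unadjusted). The first did not pass the correction.

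Some copies varied more within a genotype than between genotypes. L1Md_F2_dup21574 (chr6:48247423-48248420, plus strand, 998 bases, outside genes) had 170 and 19 reads in WT, 16, 109 and 14 in Dnmt3C KO, with 54, 22 and 398 in Nrf1 cKO and with 174, 256 and 163 in dKO. L1Md_F2_dup53291 (chr14:74318035-74324039, plus strand, 6005 bases), on the other strand of the lincRNA gene Gm49171, had 24, 139 and 101 reads in dKO against 3 to 30 in the other libraries. For Nrf1 deletion its log2 difference was 1.60 (standard error 0.56, adjusted p = 1.0, edgeR). L1Md_F_dup1718 (chr8:129288604-129293158, plus strand, 4555 bases), a leading L1Md_F copy outside genes, had 141 and 212 reads in WT and 82 to 167 in the mutants.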
